A study of Mus musculus with 6 samples.

Results

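The enzymes of de novo purine synthesis were followed in mouse two-cell embryos through 10 genes, Ppat, Gart, Pfas, Paics, Adsl, Atic, Impdh1, Impdh2, Gmps and Adss. They were picked by symbol as members of the pathway, with earlier results of these data known, and all 10 were found among the 53023 genes of the table. RNA-seq was performed at 28 hours post insemination (hpi) on 3 groups of embryos with 2 libraries per group, each library being a pool of 5 embryos of the ICR strain cultured in KSOM medium. The study's methods describe its replicates as biological, without saying whether both pools of a group came from the same collection of embryos, and P-values measure only the spread between these libraries. Non-injection embryos received no mRNA. PIASy-WT embryos received mRNA for wild-type PIASy, a SUMO ligase, fused to mCherry and an HA tag. PIASy-Mut embryos received the same construct with the C335F change, which the labels describe as a SUMO ligase mutant. Injection into the cytoplasm took place from 1.5 to 3 hpi with either mRNA at 100 ng/µl, and zygotes that fluoresced at 9 hpi were kept. All embryos kept their endogenous Pias4. The control was not injected, so the effects of injection and of the mutant protein cannot be told apart in PIASy-Mut against non-injection.

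Purine nucleotides are built on phosphoribosyl pyrophosphate (PRPP), and the ring is assembled in successive steps up to inosine monophosphate (IMP). Several steps share an enzyme. PPAT carries out the committed step, GART and PFAS the next ones, PAICS joins CO2 and aspartate, ADSL removes fumarate, and ATIC closes the ring. IMP then goes to GMP through IMPDH1 or IMPDH2 and GMPS, or to AMP through ADSS and again ADSL. Cells can also recover purine bases through salvage enzymes. An egg stores mRNAs that are degraded after fertilization, while the embryo starts to transcribe its own genes around the two-cell stage.

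The libraries held from 871663 to 1363928 fragments on genes, recovered from the FPKM values (fragments relative to gene length and library depth). The detection limit was set at 3 fragments, or 2.20 to 3.44 fragments relative to depth (CPM), and covers counting error only, as the reads had no molecular identifiers. In these pooled samples, fewer cells of a type and less RNA per cell cannot be told apart. The FPKM of Pias4, which encodes PIASy, was 2.98 and 3.59 (non-injection), 862 and 611 (PIASy-Mut) and 610 and 579 (PIASy-WT), so both injected groups carried Pias4 mRNA far above the control (log2 fold change 7.41, adjusted P=0.00164 for PIASy-Mut and 7.12, adjusted P=0.00209 for PIASy-WT, both against non-injection by limma). This level does not tell wild-type from C335F mRNA. All 6 two-cell embryo markers were above 0 in every library, and their sum was 1753 to 2056 CPM in the 4 libraries without PIASy-WT and 1062 and 740 CPM in the PIASy-WT libraries. The sum of 6 oocyte-derived markers was 3674 to 4159 CPM in the non-injection libraries and PIASy-Mut 1, 6026 CPM in PIASy-Mut 2, and 7615 and 7278 CPM in PIASy-WT. Without Bmp15 it was 2265 to 3748 CPM in the 4 other libraries and 3689 and 2754 CPM in PIASy-WT, so the groups then overlapped. Of 8 cumulus cell markers, 4 to 6 were at 0 in each library, Inha and Foxl2 were at 0 in all 6, and the sum was 12.2 to 20.7 CPM. The part of these differences in the results below was not tested.

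In non-injection embryos, the highest level belonged to the committed enzyme Ppat, at a mean of 128 FPKM (SD 9.93, n = 2). It was followed by Adss (53.2 FPKM), Paics (43.3), Impdh2 (32.5), Gmps (24.1), Adsl (16.1), Impdh1 (5.33), Gart (4.85), Atic (3.07) and Pfas (0.612). Of the 9 neighbouring pairs in this order, only Impdh1 with Gart and Gart with Atic overlapped between libraries. The 6 genes with the highest levels were thus ordered alike in both libraries. In PIASy-Mut the order began with Ppat at 139 FPKM (SD 43.9, n = 2), and 6 of 9 neighbouring pairs overlapped. In PIASy-WT, Adss stood first at 67.4 FPKM (SD 2.37, n = 2), Ppat second at 21.5 FPKM (SD 5.98, n = 2) and Paics next at 18.4 FPKM (SD 3.25, n = 2), and 5 of 9 pairs overlapped, Ppat with Paics among them.

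**Figure D1:**
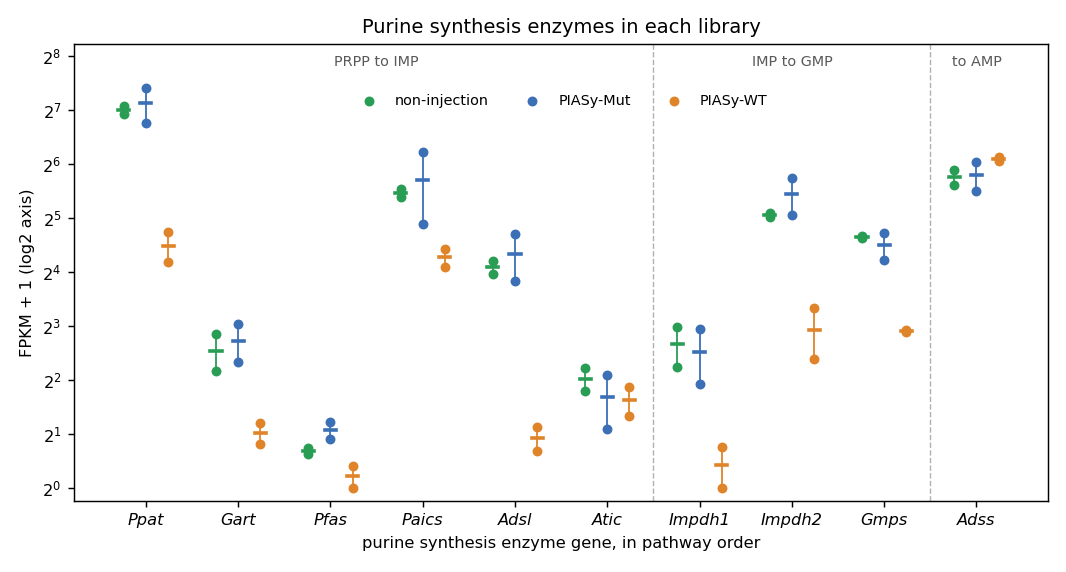
FPKM + 1 of the 10 enzymes on a log2 axis, with 1 point per library, coloured by group, a line joining the 2 libraries of a group and a bar at their mean on this scale. The PIASy-WT points lie below the other 4 for 8 of the 10 enzymes, overlap with them for Atic and lie above them for Adss.

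Both PIASy-WT libraries were below all 4 other libraries for 8 of the 10 enzymes, or 7 of the 9 that were tested, and the same held for 24.4% of the 16100 genes tested. For Adss both PIASy-WT libraries were above the other 4, which held for 19.9% of genes, and for Atic the groups overlapped. A gene was tested where 2 or more libraries reached an FPKM of 1, and 9 of the 10 enzymes passed this filter. Pfas did not. A gene was called when its adjusted P was at most 0.05 by limma over all 16100 genes, on log2(FPKM + 1), a scale on which fold changes of weakly expressed genes come out too small.

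Against non-injection, 4 of the 9 tested enzymes were called lower in PIASy-WT (Ppat, Adsl, Impdh2 and Gmps) and none higher, beside 5.76% of all tested genes called lower and 1.03% called higher. Against PIASy-Mut the same 4 genes were called lower and none higher, beside 6.01% and 0.82% of all genes. Both comparisons use the PIASy-WT libraries, so they are not independent of each other. With a log2 fold change of -2 or less also required, 3 enzymes (Ppat, Adsl and Impdh2) were called in each, beside 3.81% and 4.06% of genes. Against non-injection, the 9 enzymes had a median log2 fold change of -1.74 and all tested genes one of 0.01. Against PIASy-Mut, the medians were -1.68 and -0.03. The medians of the enzymes depended on the pseudocount, and were -2.12 and -2.33 with 0.1 and -1.05 and -1.16 with 5. An unadjusted P under 0.05 was given to 7 of the 9 enzymes in each comparison, and to 4546 and 4456 of the 16100 genes.

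These calls changed with the libraries in the fit, and so did those of all genes. With only the 4 libraries of PIASy-WT and PIASy-Mut, 0 of 9 enzymes and 0 of 14510 genes were called, while 7 enzymes and 3927 genes had an unadjusted P under 0.05 by limma. With only the PIASy-WT and non-injection libraries, 6 enzymes were called lower, as were 1998 of 14448 genes. Leaving out 1 library at a time, which assumes that the lone library of that group varies like the other groups, left between 0 and 6 enzymes called against non-injection and between 0 and 7 against PIASy-Mut. The count was 0 against non-injection without either non-injection or either PIASy-WT library. It was 0 against PIASy-Mut without either non-injection library, without PIASy-Mut 1 or without either PIASy-WT library, and 7 without PIASy-Mut 2. In the leave-one-out fits with 0 enzymes called, at most 1 gene of the whole table was called, while 5 to 7 of the 9 enzymes and 2468 to 3875 genes had an unadjusted P under 0.05 by limma. In those with 6 or 7 enzymes called, 1866 to 2032 genes were called lower.

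**Figure D2:**
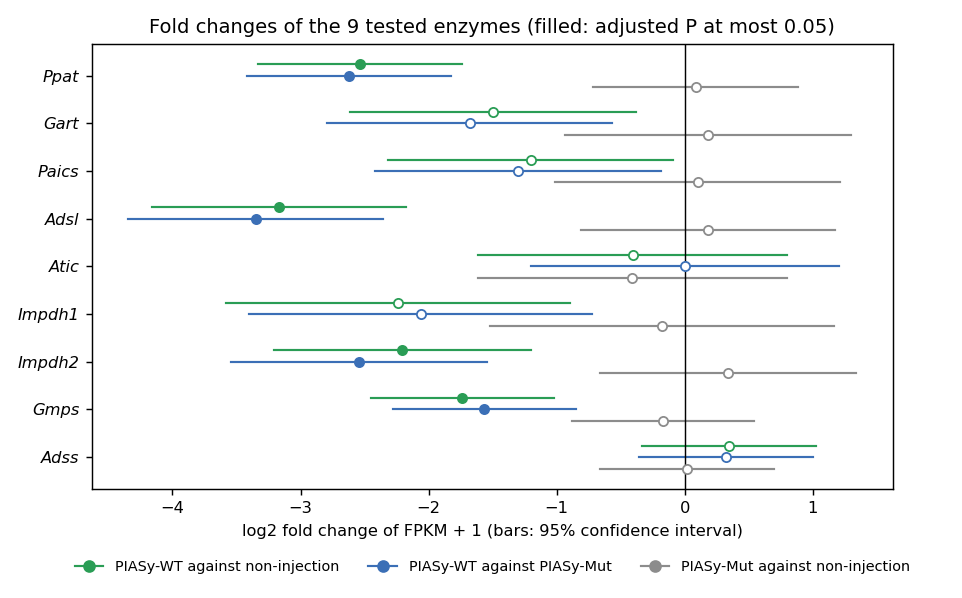
Log2 fold changes of FPKM + 1 for the 9 tested enzymes in 3 comparisons, with 95% confidence intervals from limma and filled points where the adjusted P was at most 0.05. In both PIASy-WT comparisons Ppat, Adsl, Impdh2 and Gmps are filled, and no point is filled in PIASy-Mut against non-injection.

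Ppat (ENSMUSG00000029246.14, chr5:76913249-76951578, minus strand, mm10) encodes the amidophosphoribosyltransferase that commits PRPP to the pathway. Its FPKM was 135 and 121 (non-injection), 170 and 108 (PIASy-Mut) and 25.8 and 17.3 (PIASy-WT), from 88 to 812 fragments per library. Both PIASy-WT libraries were well below the lowest of the others. The mean was 5.92-fold lower than in non-injection (log2 fold change -2.54, standard error 0.33, adjusted P=0.0251 by limma) and 6.44-fold lower than in PIASy-Mut (-2.62, adjusted P=0.0235 by limma). Paics (ENSMUSG00000029247.17, chr5:76951307-76967509, plus strand), the bifunctional carboxylase and synthetase, is its head-to-head neighbour, and the exons of the 2 genes overlap by 272 bases. The kit does not mark strand and whether counting used strand is not given in the sources used here, so reads from this overlap are uncertain between the genes. Paics was 45.5 and 41.1 FPKM (non-injection), 74.4 and 28.9 (PIASy-Mut) and 20.7 and 16.1 (PIASy-WT). Its PIASy-WT libraries lay below the others, but the difference did not pass the test (log2 fold change -1.20 with a 95% confidence interval of -2.32 to -0.09 against non-injection, adjusted P=0.153 by limma, and -1.30, adjusted P=0.131 by limma, against PIASy-Mut). The latter was -0.64 without PIASy-Mut 1 and -1.97 without PIASy-Mut 2, each with a lone library left in that group. The ratio of Ppat to Paics was 2.28 to 3.73 in the 4 other libraries and 1.25 and 1.08 in PIASy-WT.

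Gart and Pfas encode the enzymes of the early ring-building steps, and both were low. Gart (ENSMUSG00000022962.14, chr16:91621186-91646952, minus strand), which encodes a trifunctional enzyme, was 3.49 and 6.20 FPKM (non-injection), 7.28 and 4.02 (PIASy-Mut) and 0.756 and 1.31 (PIASy-WT), from 4 to 30 fragments. Its log2 fold change was -1.50 (95% confidence interval -2.61 to -0.38, adjusted P=0.0999 by limma) against non-injection and -1.68 (adjusted P=0.0795 by limma) against PIASy-Mut, neither past the threshold. Its exons overlap the antisense gene Gm15964 by 676 bases, and Gm15964 itself had 1 to 12 fragments. Pfas (ENSMUSG00000020899.15, chr11:68985697-69008460, minus strand) had 6 fragments in each non-injection library, 11 and 6 in those of PIASy-Mut and 0 and 3 in those of PIASy-WT. The PIASy-WT libraries were at the limit of detection, so non-injection exceeded it by a factor of at least 1.99 in mean FPKM and PIASy-Mut by at least 3.60. Without the filter its log2 fold changes were -0.48 (adjusted P=0.503 by limma) and -0.86 (adjusted P=0.315 by limma).

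Adsl (ENSMUSG00000022407.9, chr15:80948490-80970947, plus strand) encodes adenylosuccinate lyase, which acts both before IMP and on the way to AMP. Its FPKM was 14.7 and 17.4 (non-injection), 25.1 and 13.2 (PIASy-Mut) and 1.21 and 0.618 (PIASy-WT). The PIASy-WT libraries held 9 and 4 fragments against 65 to 146 in the others. With the pseudocount of 1 it had the most negative log2 fold change among the tested enzymes, -3.17 (standard error 0.41, adjusted P=0.0251 by limma) against non-injection and -3.35 (adjusted P=0.0224 by limma) against PIASy-Mut, and 0.938% and 0.702% of all tested genes had a lower one. With a pseudocount of 0.1, Impdh1, which was at the limit of detection in PIASy-WT, was lower against non-injection (-4.21) than Adsl (-4.06). By mean FPKM Adsl was 17.6-fold lower than in non-injection and 21.0-fold lower than in PIASy-Mut. Atic (ENSMUSG00000026192.13, chr1:71557150-71579631, plus strand), which performs the last reactions to IMP, was 2.48 and 3.65 FPKM (non-injection), 3.28 and 1.15 (PIASy-Mut) and 2.65 and 1.53 (PIASy-WT). The 3 groups overlapped, and the log2 fold change was -0.41 (95% confidence interval -1.61 to 0.80, adjusted P=0.615 by limma) against non-injection and 0.00 (-1.20 to 1.21) against PIASy-Mut. Atic had 8 to 33 fragments per library, and these intervals are wide.

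On the branch to GMP, Impdh2 (ENSMUSG00000062867.13, chr9:108560286-108565584, plus strand) encodes an IMP dehydrogenase. Its FPKM was 31.7 and 33.3 (non-injection), 52.6 and 32.4 (PIASy-Mut) and 9.07 and 4.24 (PIASy-WT). All 4 other libraries exceeded the PIASy-WT libraries. The mean was 4.88-fold lower than in non-injection (log2 fold change -2.21, standard error 0.41, adjusted P=0.0384 by limma) and 6.39-fold lower than in PIASy-Mut (-2.54, adjusted P=0.0295 by limma). Without PIASy-WT 1 these folds were 7.67 and 10.02. Of the 50-base sequences of Impdh2, 39.3% also occur in its pseudogene Impdh2-ps, to which 0 to 9 fragments were assigned, so reads shared by both are uncertain. Impdh1 (ENSMUSG00000003500.13, chr6:29200434-29216364, minus strand), the isozyme, was 6.90 and 3.76 FPKM (non-injection), 6.76 and 2.79 (PIASy-Mut) and 0.687 and 0 (PIASy-WT), where it had 3 and 0 fragments. Non-injection thus exceeded PIASy-WT at least 7.20-fold and PIASy-Mut exceeded it at least 6.46-fold, and the test gave log2 fold changes of -2.24 (adjusted P=0.0647 by limma) and -2.06 (adjusted P=0.0759 by limma), neither past the threshold. Without PIASy-Mut 1 the bound against PIASy-Mut was 3.77-fold, and without non-injection 1 the bound against non-injection was 5.08-fold. Gmps (ENSMUSG00000027823.9, chr3:63976106-64022579, plus strand), GMP synthetase, was 23.7 and 24.5 FPKM (non-injection), 25.6 and 17.7 (PIASy-Mut) and 6.42 and 6.66 (PIASy-WT). It fell 3.69-fold against non-injection (log2 fold change -1.74, standard error 0.29, adjusted P=0.0328 by limma) and 3.31-fold against PIASy-Mut (-1.56, adjusted P=0.0375 by limma).

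On the branch to AMP, Adss (ENSMUSG00000015961.8, chr1:177762962-177796511, minus strand) encodes adenylosuccinate synthetase. Its FPKM was 47.9 and 58.5 (non-injection), 44.5 and 64.8 (PIASy-Mut) and 65.8 and 69.1 (PIASy-WT), from 208 to 395 fragments. The PIASy-WT libraries were the highest, with PIASy-WT 1 just above PIASy-Mut 2. The log2 fold change was 0.34 (95% confidence interval -0.34 to 1.02, adjusted P=0.459 by limma) against non-injection and 0.32 (-0.36 to 1.00, adjusted P=0.493 by limma) against PIASy-Mut. Neither difference passed the test, and the intervals reach from a slightly lower level to one higher by 1.02 on the log2 scale. The ratio of Adss to Gmps, the enzymes of the 2 branches, was 1.74 to 3.66 in the 4 other libraries and 10.2 and 10.4 in PIASy-WT. Adss to Adsl was 1.77 to 4.90 in the others and 54.6 and 112 in PIASy-WT.

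**Figure D3:**
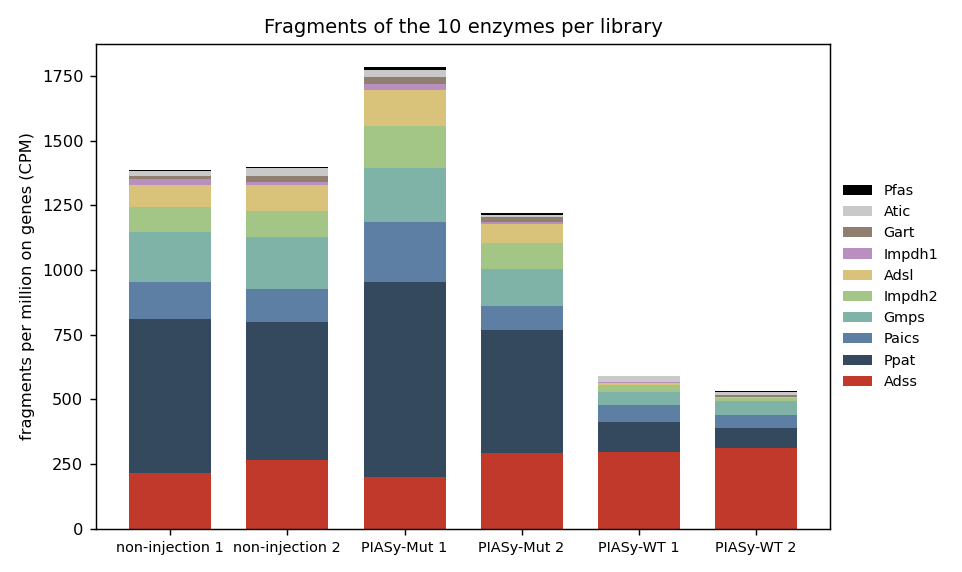
Fragments per depth (CPM) summed over the 10 enzymes in each library, stacked by enzyme. The total is 1220 to 1785 CPM in the other 4 libraries and 590 and 531 CPM in the PIASy-WT libraries, where Adss takes 50.5% and 59.0% of it.

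Summed over the 10 enzymes, the fragments made up 1389 and 1399 CPM (non-injection), 1785 and 1220 CPM (PIASy-Mut) and 590 and 531 CPM (PIASy-WT). Without Adss the sums were 1172 and 1134, 1583 and 926, and 292 and 218 CPM. The share of Adss was 11.3% to 24.1% in the other 4 libraries and 50.5% and 59.0% in PIASy-WT, while that of Ppat went from 38.1% to 42.9% in the others to 19.3% and 14.4% in PIASy-WT. These sums are shares of a library and do not measure RNA per embryo.

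PIASy-Mut against non-injection gave no call among the 9 tested enzymes, beside 0% of all genes called lower and 0.00621% called higher. The latter was 1 gene, Pias4, whose mRNA was injected. Of the 9 enzymes, 0 had an unadjusted P under 0.05 by limma, against 718 of the 16100 genes. By voom on the recovered fragments, both counts were also 0 of 9. The log2 fold changes ran from -0.41 (Atic) to 0.34 (Impdh2), with a median of 0.09 against 0.04 for all genes. The 2 PIASy-Mut libraries differed from each other. PIASy-Mut 1 was higher than PIASy-Mut 2 for 9 of the 10 enzymes, all but Adss, and for 48% of the 16100 genes tested. PIASy-Mut 1 was above both non-injection libraries for 7 enzymes (40.4% of genes) and PIASy-Mut 2 was below both for 6 (32.1% of genes), and for 5 enzymes the PIASy-Mut range enclosed both non-injection values (25.7% of genes). The PIASy-Mut libraries also differed from each other more than those of the other groups over the whole table, with a chi-square per gene of 14.3 beside 3.9 in non-injection and 4.1 in PIASy-WT. PIASy-Mut 2 is also the library with the fewest fragments and the one of its group with the higher oocyte-derived marker sum.

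The genomic sequence next to the start of the called genes, and of Adss, which was not called, is given so that the 2 kinds can be compared. The stretches are RefSeq sequence (GRCm38.p6), 5′ to 3′ on the gene's strand, chosen as the upstream bases free of annotated exons and at most 150 long. Capitals mark GC boxes (GGGCGG or its reverse complement CCGCCC, overlapping matches merged). The Adsl stretch ends at the RefSeq start, and those of Adss, Gmps and Impdh2 end 2, 37 and 150 bases before it.
Adsl (chr15:80948340-80948489, plus strand): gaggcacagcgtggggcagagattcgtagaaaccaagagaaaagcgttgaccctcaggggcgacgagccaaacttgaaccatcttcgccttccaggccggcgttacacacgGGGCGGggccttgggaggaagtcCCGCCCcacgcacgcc
Impdh2 (chr9:108560186-108560285, plus strand): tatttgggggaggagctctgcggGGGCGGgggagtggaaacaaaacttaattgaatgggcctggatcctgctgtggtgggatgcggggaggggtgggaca
Gmps (chr3:63975956-63976105, plus strand): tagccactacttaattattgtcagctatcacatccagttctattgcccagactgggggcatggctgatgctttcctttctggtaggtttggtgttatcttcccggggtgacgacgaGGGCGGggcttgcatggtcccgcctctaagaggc
Adss (chr1:177796512-177796661, minus strand): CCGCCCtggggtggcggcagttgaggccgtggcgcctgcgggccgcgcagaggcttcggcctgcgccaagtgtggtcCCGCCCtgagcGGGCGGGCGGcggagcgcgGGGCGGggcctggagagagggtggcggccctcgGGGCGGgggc
Promoter entries were found for 9 of the 10 genes and gave 10 windows of 300 bases, 250 before and 50 after each start, since Impdh1 has 2 starts. A GC box was present in 10 of 10 windows and in 35.7% of all 32851 RefSeq promoter windows, a CCAAT box (either strand) in 4 of 10 and in 37.4%, and an E-box (CACGTG) in 3 of 10 (Atic, Paics and Impdh2) and in 7.15%. The GC box was in the windows of called and of uncalled genes alike. In the windows of Ppat and Paics, all 250 bases before the start lie in annotated exons, so neither has an exon-free stretch there.

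The genes around the pathway give the setting of these values. Of 46 listed genes of PRPP supply, one-carbon supply, salvage, interconversion and breakdown, nucleotide kinases and ribonucleotide reduction, 37 were tested, in 38 rows since Pnp has 2, and 4 were called lower and none higher in each PIASy-WT comparison, beside the 5.76% and 6.01% of all tested genes called lower. The median log2 fold changes of these rows were 0.18 with non-injection as the control and -0.23 with PIASy-Mut. Each of the 4 belonged to a different list. In PRPP supply (1 of 4 tested), Prps1, a PRPP synthetase, was 1097 and 1024 FPKM (non-injection), 1590 and 752 (PIASy-Mut) and 236 and 118 (PIASy-WT) (log2 fold change -2.66, adjusted P=0.0357 by limma against non-injection and -2.70, adjusted P=0.0339 against PIASy-Mut). In one-carbon supply (1 of 6), Shmt1, the cytosolic serine hydroxymethyltransferase, was 31.9 to 69.1 FPKM in the 4 other libraries and 5.25 and 6.27 in PIASy-WT (-2.72, adjusted P=0.0293 by limma, and -2.83, adjusted P=0.0252). In salvage (1 of 5), Aprt, which recovers adenine, was 37.6 to 82.1 FPKM in the others and 7.01 and 7.54 in PIASy-WT (-2.78, adjusted P=0.0321 by limma, and -2.61, adjusted P=0.0328). Among nucleotide kinases (1 of 9), Ak6 was 53.5 to 96.9 FPKM in the others and 15.3 and 12.3 in PIASy-WT (-2.03, adjusted P=0.0328 by limma, and -2.35, adjusted P=0.0261).

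No gene of interconversion and breakdown (9 tested) or of ribonucleotide reduction (4 tested) was called in either PIASy-WT comparison. Gda, guanine deaminase, was 25.6 to 31.4 FPKM in the 4 other libraries and 32.6 and 38.0 in PIASy-WT, and Ada, adenosine deaminase, was 6.23 to 12.0 in the others and 9.80 and 12.2 in PIASy-WT. Rrm2, a subunit of ribonucleotide reductase, was 94.0 to 204 FPKM in the others and 53.1 and 58.4 in PIASy-WT (adjusted P=0.126 against non-injection and 0.0938 against PIASy-Mut by limma), and Rrm2b, the p53-inducible subunit, was 20.9 to 32.4 in the others and 45.3 and 47.8 in PIASy-WT (adjusted P=0.137 and 0.140 by limma). Of the 8 pyrimidine synthesis genes, all tested, 1 was called lower against non-injection and 0 against PIASy-Mut, beside the same 5.76% and 6.01% of all genes. This was Tyms, thymidylate synthase, with a log2 fold change of -2.07 (adjusted P=0.0378 by limma) and -1.77 (adjusted P=0.0503 by limma). Umps had log2 fold changes of -2.89 (adjusted P=0.0604 by limma) and -3.05 (adjusted P=0.0543 by limma) and was not called. Cad, with -1.71 (adjusted P=0.0719 by limma) and -2.00 (adjusted P=0.0537 by limma), was not called either. Negative values were found for 5 of the 8 genes against non-injection and 6 against PIASy-Mut, while Dhodh had 1.08 and 0.957. Over this list the median log2 fold change was -0.82 and -0.98 in these comparisons.

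**Figure D4:**
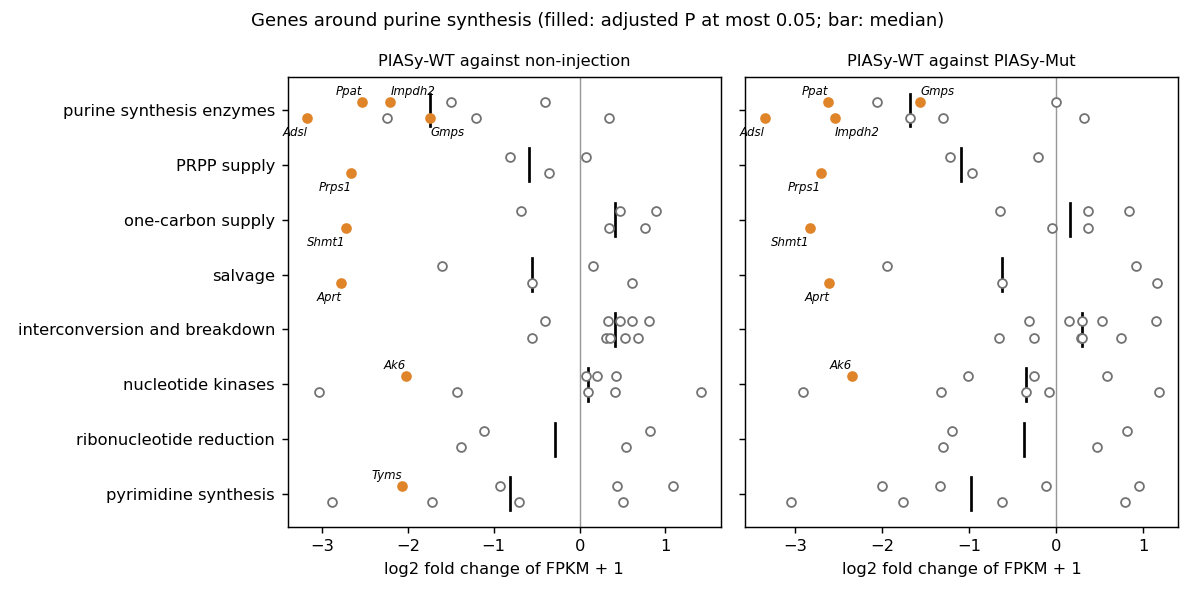
Log2 fold changes of FPKM + 1 for the tested genes of the purine synthesis enzymes and of 7 related lists, 1 point per gene (2 for Pnp), filled at an adjusted P of at most 0.05, with a bar at the median of the list. The median is -1.74 and -1.68 for the purine synthesis enzymes and between -1.09 and 0.41 for the other lists.

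Among the marker lists, Obox3 (two-cell) was called lower in PIASy-WT against both groups (log2 fold change -3.80, adjusted P=0.0224 by limma against non-injection), Tcstv3 against PIASy-Mut (adjusted P=0.0499 by limma), Zp3 (oocyte) against both (-1.57, adjusted P=0.0292 by limma against non-injection) and Amhr2 (cumulus cell) against non-injection (-1.86, adjusted P=0.0427 by limma), while none was called higher. Against non-injection the two-cell markers other than Obox3 were not called, with log2 fold changes of -1.14 (Tcstv3), -0.88 (Zfp352), -0.22 (Zscan4d), 0.44 (Zscan4c) and 0.58 (Usp17la). Tnfaip6, the other cumulus cell marker tested, gave 1.05 in the same comparison (adjusted P=0.154 by limma). The other 5 oocyte-derived markers had positive log2 fold changes against non-injection, from 0.25 (Zar1) to 1.29 (Gdf9) and 1.55 (Bmp15), none past the threshold, and the median of the list was 0.48. With PIASy-Mut as the control, Nlrp5 (-0.16) and Oosp1 (-0.04) were negative too, and the median was 0.07. The 3 genes outside the enzymes whose pattern over the 6 libraries was most like the mean pattern of the 9 tested enzymes were Wdr43, Sertad1 and Nme5, by a root mean square difference of 0.0418, 0.0525 and 0.0546 in centred log2(FPKM + 1). Wdr43 was 113 and 128 FPKM (non-injection), 152 and 92.4 (PIASy-Mut) and 41.8 and 31.8 (PIASy-WT).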

How the data were processed

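RNA-seq was analysed in 6 libraries of mouse two-cell embryos, 2 each of non-injection, PIASy-Mut and PIASy-WT. cDNA was made with the SMART-Seq v4 kit (11 cycles) and libraries with the Nextera XT kit (13 cycles). Per the labels, the authors used Trim Galore, STAR, featureCounts and the mm10 genome. Versions, the annotation release and the strand setting are not given in the sources used here. The authors deposited FPKM values, normalized to gene length and to the fragments on genes, and the table has 0 spike-in entries and 0 columns of unused samples.

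FPKM times gene length gave whole fragments for 100% of values above 0 (tolerance 0.01), and depth was taken from this. Differences were tested by limma 3.58.1 under R 4.3.3 (lmFit, eBayes with a mean-variance trend) on log2(FPKM + 1), a pseudocount of 1, in a single fit of the 6 libraries. The filter kept 16100 genes in which 2 or more libraries reached an FPKM of 1. There were 3 residual and 3.12 prior degrees of freedom, and the Benjamini-Hochberg adjustment ran over all of these genes. The authors used DESeq2 on counts, which was not run here. Recovered fragments were tested with voom, scaled by depth, in 1 alternative chosen after seeing the data, over genes with 10 or more fragments in 2 or more libraries. The planned voom fit with TMM scaling was run and then set aside, since its tool is reserved here for deposited counts. Where neither library of a group exceeded 3 fragments, its level was not told from 0, and folds against it are lower bounds set by 3 fragments per library.

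The 10 enzymes and all lists were chosen with earlier results of these data known. The lists were PRPP supply, one-carbon supply, salvage, interconversion and breakdown, nucleotide kinases, ribonucleotide reduction, pyrimidine synthesis, and markers of two-cell embryos, oocytes and cumulus cells. Named were all 10 enzymes, Pias4, the called genes of each list (or the 2 with the highest mean FPKM where none was called) and the 3 genes nearest in pattern. Umps, Cad, Dhodh and further markers were named to show genes that were not called. Promoter sequence came from RefSeq (GRCm38.p6) and positions of exons from GENCODE M21. Sequence sharing is the percent of 50-base sequences of a gene found in another gene. The procedure was tested on simulated data. Alternatives were other pseudocounts, filters and scalings, eBayes without a trend, voom, a fit on the groups compared, a replicate block and leaving out each library. Python 3.11.15, numpy 2.4.6, pandas 2.3.3 and matplotlib 3.10.9 were used.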

Additional observations from a re-analysis of the deposited data

How the results depend on the processing

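Against non-injection, the count of enzymes called lower was 4 as reported. It was 2 without a filter on low values and 2 without a mean-variance trend, 6 by voom on recovered fragments (a setting chosen after seeing the data) and 6 with only the 4 libraries compared, and 0 to 6 when 1 library was left out. Against PIASy-Mut it was 4 as reported, 2 without a filter, 7 by voom, 0 with only the 4 libraries compared, and 0 to 7 when 1 library was left out. PIASy-Mut against non-injection gave 0 in all 16 alternatives. Without a filter, 154 and 243 of 27826 genes were called lower in the PIASy-WT comparisons, and without a trend 256 and 464 of 16100. The voom fits called 1941 and 1913 of 10193 genes lower. The number of genes called lower ranged from 0 to 1998 and from 0 to 2032 in the PIASy-WT comparisons, against 928 and 968 as reported, and that of genes called higher from 0 to 1047 and from 0 to 1019, against 166 and 132. In PIASy-WT against non-injection, Ppat and Adsl were called in 12 of 16 alternatives, Gmps in 10 and Impdh2 in 9. In PIASy-WT against PIASy-Mut, Ppat and Adsl were called in 10 of 16, Impdh2 in 9 and Gmps in 5. Impdh1, Paics and Gart were called in 5, 4 and 0 of 16 alternatives against non-injection and in 2 each against PIASy-Mut. No log2 fold change of a tested enzyme changed sign in a PIASy-WT comparison, except that of Atic against PIASy-Mut, which was 0.00 as reported, -0.01433 with a pseudocount of 5 and -0.4949 to 0.4974 when 1 library was left out. Against PIASy-Mut with 1 library left out, the log2 fold change of Paics ranged from -1.97 to -0.635, and those of the other 6 enzymes with an unadjusted P under 0.05 stayed between -3.789 and -1.31. Quantile normalization moved the median of all genes to 0.116 and 0.111 in the PIASy-WT comparisons. The cause of these changes was not tested. The planned voom fit with TMM scaling was run and then set aside, since its tool is reserved here for deposited counts, and voom scaled by depth stands in its place.

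With the replicate number as a replicate block, 5 enzymes were called lower against non-injection (Impdh1 in addition) and 3 against PIASy-Mut (all but Gmps), and 719 and 799 genes in all. The correlations of same-numbered deviations were 0.00368, 0.0851 and 0.0637 between the 3 pairs of groups. Such values show no shared deviation, but they cannot tell whether same-numbered libraries were handled together.

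In PIASy-Mut against non-injection, where no enzyme passed the test, signs changed. Under quantile normalization Ppat was -0.0001052 and Adss -0.0317, while Adss was -0.03449 after rescaling by the median ratio. With 1 library left out, the log2 fold change ranged from -0.2409 to 0.4114 for Ppat, -0.1789 to 0.5422 for Gart, -0.5679 to 0.7674 for Paics, -0.2568 to 0.618 for Adsl, -0.9048 to 0.08753 for Atic, -0.6954 to 0.3407 for Impdh1, -0.002867 to 0.6774 for Impdh2, -0.4264 to 0.08144 for Gmps and -0.2469 to 0.2866 for Adss. Depth limits the genes with under 35 fragments per library, namely Gart, Pfas, Atic and Impdh1.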
